A study of Mus musculus with 90 samples.

Results

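Melanoma allografts that had regressed under an antibody against PD-L1 and then grew back were set against melanoma allografts that were regressing under the same antibody. Tumours were taken by their outcome label: 6 relapse tumours, 3 in study 2 and 3 in study 3, against 27 responder tumours, 17 in study 2 and 10 in study 3, which makes 33 of the 90 tumours in the series. The comparison asks how a tumour that escaped treatment differed from one that was still yielding to it. All 90 tumours share the genotype label Hgftg;Cdk4R24C/R24C, an Hgf transgene (promoter not given in the sources used here) with an activated Cdk4 allele, and the strain label B6.cBrd. Both groups received anti-mouse PD-L1 mIgG1 D265A, at 10 mg/kg in the sample labels, while the series description also names 20 mg/kg. Relapse tumours had become too small to measure and were harvested when they regrew, after 4 to 10 doses. Responder tumours had lost at least 5% of their volume and were harvested after 2 to 12 doses. Beside these, 23 non-responder tumours, which progressed under the same antibody, and 22 tumours given the control antibody mouse IgG1 D265A were used. The number of doses of a given tumour is not in the labels used here, so time under treatment and outcome cannot be told apart. Each tumour carries its own animal number, so errors and p-values measure the spread between tumours.

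PD-L1 on tumour and myeloid cells binds PD-1 on T cells and restrains them. Blocking it lets CD8 T cells release granzymes and interferon gamma, and interferon gamma in turn makes tumour cells display more antigen, attract more T cells through chemokines such as Cxcl9, and make more PD-L1. Resistance after a first response is known from other studies to arise through loss of antigen presentation or of interferon gamma signalling, through loss of melanocyte antigens, or through a weaker T cell attack, and the genes of each of these routes were measured here.

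Expression values are log2 intensities from 3 prime arrays of whole tumour pieces, in which fewer cells of a type and less RNA per cell cannot be told apart. The melanocyte differentiation list, 18 pigment-cell genes, had a mean log2 value of 9.66 to 10.15 in the 6 relapse tumours. The same list averaged between 9.25 and 10.10 in study 2 responders, and in study 3 between 7.02 and 9.91. Study 3 responder replicate 3 stood low, at 7.12, and its B cell list averaged 10.37 and its adipocyte list 10.11. Replicate 4 of the same group was at 7.02, and its skeletal muscle list averaged 13.06. Pigment-cell transcripts go against the tumour label in those pieces, so results that rest on them are also given without the melanocyte-poor tumours, the 5 in the series whose melanocyte mean is below 9. No relapse tumour is among them. The difference between the 3 prime and 5 prime control probe sets of Actb and Gapdh, a sign of RNA integrity, had a median of 0.08 in study 2 relapse tumours and -0.01 in study 2 responders. In study 3 the medians were -0.007 in relapse tumours and 0.19 in responders, with 0.935 as the highest responder value. With this difference as a covariate no gene passed the threshold.

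No gene passed the test between relapse and responder tumours. Averaged over both studies, 0 of 18194 genes passed an adjusted p of 0.05 (limma, 2-sided, Benjamini-Hochberg over all genes, 0% called), and the smallest adjusted p was 0.29. At an unadjusted p below 0.05 there were 962 genes, or 5.29%, of which 494 (2.72%) were higher and 468 (2.57%) lower in relapse. Within study 2 again 0 genes passed and 95 had an unadjusted p below 0.05, or 0.522%. Within study 3 the adjusted count was 0 too, with 1849 genes, or 10.2%, at an unadjusted p below 0.05 and a smallest adjusted p of 0.091. The difference between the studies was tested as an interaction, which called 0 genes, with 481, or 2.64%, at an unadjusted p below 0.05. Fitting each probe set alone also gave 0 calls among 34958, with 1743 at an unadjusted p below 0.05. Other settings of the fit called 0.0385% of genes on average with array weights of either kind. In study 3 they called 1.03% and 0.704% with these weights, 0.0165% without the melanocyte-poor tumours, 0.022% with muscle and fat covariates and 0.011% with the compared groups alone. A p that misses the threshold does not show that values did not differ, and the intervals show how far they could. For 97.2% of genes the 95% interval of the averaged log2 fold change, relapse over responder, stayed within 1 in either direction, and for 78.6% it stayed within 0.5. The median standard error was 0.11 over all genes, but 0.34 over the 53 genes of the T cell, cytotoxic and interferon gamma response lists, so these genes were compared less precisely than most.

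Of the 470 measured entries of 33 gene lists, those for T cells, killing and natural killer (NK) cells lay mostly below 0, and those for pigment cells, proliferation and type I interferon mostly above it. Over all genes the median averaged log2 fold change was -0.0043 and 51.4% of genes were negative. The plot of list medians shows that the studies often differed in size, and for many lists also in direction. The macrophage median, for example, was 0.11 in study 2 and -0.41 in study 3.

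**Figure D1:**
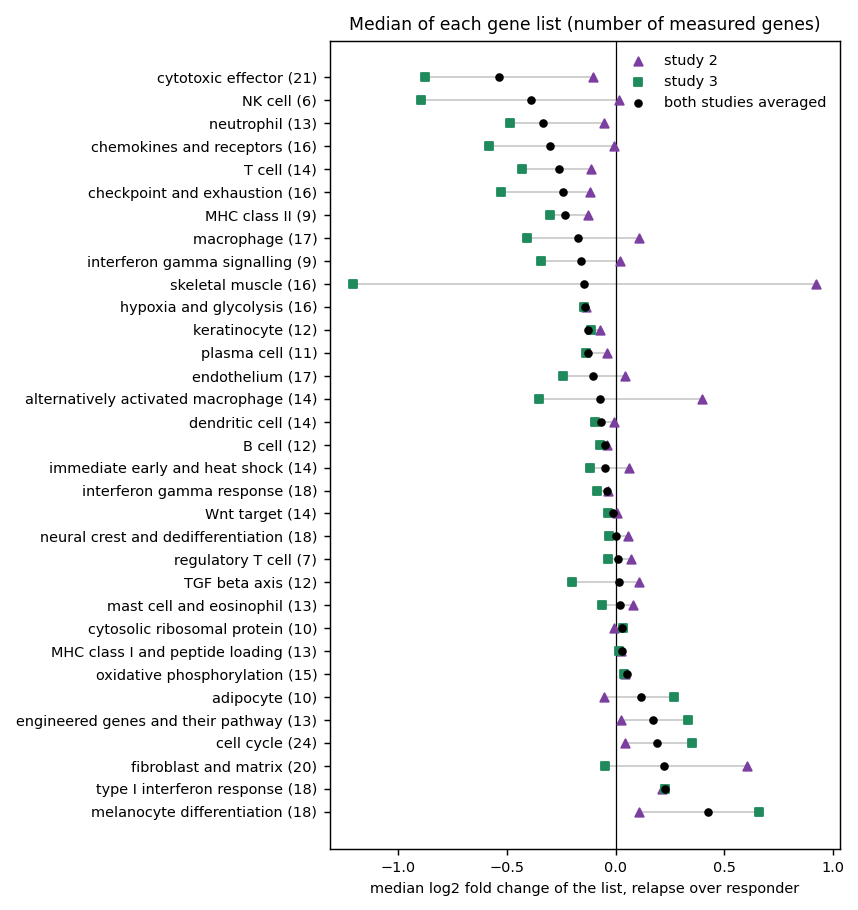
Median log2 fold change, relapse over responder, of each of 33 gene lists (horizontal axis, log2 units) in study 2 (triangles), in study 3 (squares) and averaged over both (black dots), with the number of measured genes in parentheses. The cytotoxic effector list has the lowest averaged median, -0.54, and the melanocyte differentiation list the highest, 0.43; skeletal muscle has its 2 studies farthest apart, at 0.92 and -1.21.

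T cell receptor genes were lower on average in relapse tumours without passing the test. Of 14 measured T cell genes, 13 had a negative averaged fold change and 0 passed, with a list median of -0.26, -0.11 in study 2 and -0.43 in study 3. Cd3g, one of the CD3 chains that signal for the T cell receptor, had log2 values of 9.32, 7.06 and 6.79 in study 2 relapse tumours, against a lowest, median and highest responder of 5.40, 7.96 and 9.57. In study 3, Cd3g read 8.70, 7.62 and 8.67 in relapse tumours, against 7.14, 8.97 and 10.94 in responders. The groups overlapped in both studies: 1 study 2 relapse tumour stood near the highest responder, and the other 5 relapse tumours were under their study's responder median. For Cd3g the averaged log2 fold change was -0.48 ± 0.53 (SE, 6 against 27 tumours, adjusted p = 0.893 by limma). Cd3d, another CD3 chain, had -0.70 ± 0.44, and Themis, which tunes T cell receptor signals in developing T cells, had -0.58 ± 0.26 with an unadjusted p of 0.0287. With the melanocyte-poor tumours left out the T cell median was -0.045 and 10 of 14 members were negative, so the size of this list's value depended on those tumours. It also moved with single relapse tumours, to -0.45 without study 2 replicate 1, -0.17 without study 2 replicate 2, -0.16 without study 2 replicate 3 and -0.15 without study 3 replicate 2. With the melanocyte mean as a covariate the T cell median was 0.06, with 7 of 14 negative.

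Cytotoxic effector genes had the lowest median of the 33 lists. All 21 had a negative averaged fold change, 5 had an unadjusted p below 0.05, 0 passed, and the list median was -0.54. It was -0.11 in study 2 and -0.88 in study 3. Leaving out the melanocyte-poor tumours, the 21 were still negative with a median of -0.44, and leaving out each relapse tumour in turn gave medians from -0.86 to -0.39. The value of -0.86 came from leaving out study 2 relapse replicate 1. Its list mean was 7.74, against 6.30 and 6.36 in the other study 2 relapse tumours and 5.90 to 7.88 in study 2 responders. In study 3 the relapse tumours had list means of 7.02, 6.56 and 6.94, against 6.75, 7.82 and 8.57 as the lowest, median and highest responder.

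Gzmb, the granzyme that starts apoptosis in target cells, is a member of this list. It measured 11.06, 8.26 and 8.16 in study 2 relapse tumours, against 7.83, 9.47 and 11.60 as the lowest, median and highest responder. In study 3 relapse tumours it measured 8.92, 9.11 and 8.73, against 9.40, 10.70 and 11.74 in responders. Study 2 overlapped and study 3 did not. The averaged log2 fold change was -1.07 ± 0.49 (95% interval -2.05 to -0.08, adjusted p = 0.847 by limma). Gzma, a granzyme of CD8 T and NK cells that cleaves its own set of targets, read 8.83, 8.10 and 8.08 in study 2 relapse tumours, against 7.15, 8.68 and 9.27 in responders. In study 3, Gzma was 8.40, 8.30 and 8.36 in relapse tumours, against 8.66, 9.98 and 12.06 in responders. All 3 study 3 relapse tumours were below all 10 responders, and the averaged log2 fold change was -0.94 ± 0.38 (unadjusted p = 0.0151, adjusted p = 0.847 by limma). Klrg1, a receptor of strongly activated effector cells, had 5.83, 5.49 and 5.73 in study 2 relapse tumours, against 5.41, 5.68 and 6.71 in responders. Its study 3 values were 5.94, 5.73 and 5.72 in relapse tumours, against 6.08, 6.41 and 7.41 in responders. For Klrg1 the averaged log2 fold change was -0.44 ± 0.14 (unadjusted p = 0.0029, adjusted p = 0.847 by limma), the smallest p of the list. Within study 3 and with array weights, which count 2 melanocyte-poor responders little, Klrg1 passed at an adjusted p of 0.0185 and Gzma at 0.0454 by limma.

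Cd8a, the co-receptor that marks killer T cells, measured 7.92, 6.02 and 6.09 in study 2 relapse tumours, against 5.82, 6.97 and 8.64 in responders. It measured 7.16, 6.27 and 7.45 in study 3 relapse tumours, against 6.25, 7.71 and 9.49 in responders. Both studies overlapped, and the averaged log2 fold change was -0.67 ± 0.36 (adjusted p = 0.847 by limma). All 5 Cd8a probe sets gave a negative value, from -0.67 to -0.12.

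In study 3, 5 of the 21 cytotoxic genes had every relapse tumour below every responder: Gzma, Gzmb, Gzmd, Klrd1 and Klrg1. Over all genes 167, or 0.918%, did so in study 3, and 456, or 2.51%, had every relapse tumour above every responder. Study 2 had 7 genes (0.0385%) of the first kind and 5 (0.0275%) of the second, and no gene was of either kind in both studies. Gzmd and Klrd1 were not among the genes the naming rule picks and were named after their values were seen. Gzmd belongs to a cluster of near-identical granzyme genes that an array probe may not separate. It read 2.76, 2.98 and 2.46 in study 3 relapse tumours, against 2.99, 4.30 and 7.69 in responders. These relapse values lay near the lowest value of the arrays, 2.19, and the tumour at 2.98 was next to the lowest responder. Klrd1, the partner chain of inhibitory and activating NK receptors, read 8.66, 8.19 and 8.65 in study 3 relapse tumours, against 8.82, 9.71 and 10.24 in responders.

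**Figure D2:**
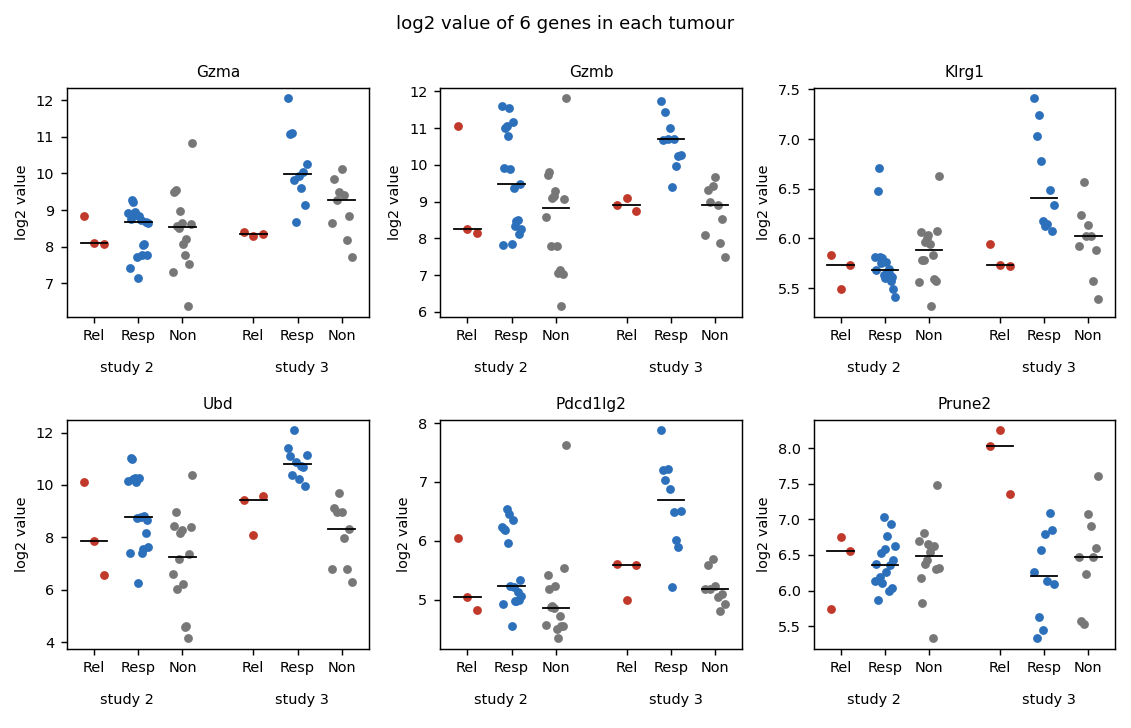
log2 values (vertical axis) of Gzma, Gzmb, Klrg1, Ubd, Pdcd1lg2 and Prune2 in each relapse (Rel, red), responder (Resp, blue) and non-responder (Non, grey) tumour of study 2 (left of each panel) and study 3 (right), with the group median as a black bar. In study 3 every relapse tumour is below every responder for Gzma, Gzmb, Klrg1 and Ubd and above every responder for Prune2, while the study 2 relapse tumours overlap the responders for all 6 genes.

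NK cell genes were lower on average, with the lower values in study 3. The 6 measured members were all negative on average, with a median of -0.39, 0.01 in study 2 and -0.89 in study 3, and 0 passed. The NK list mean was 6.61, 6.34 and 6.41 in study 3 relapse tumours, against 6.78 as the lowest, 7.38 as the median and 8.11 as the highest responder, with no overlap. In study 2 it was 6.90, 6.11 and 5.95 in relapse tumours, against 5.27, 6.25 and 6.92 in responders. Klre1, an NK receptor, read 6.97, 6.72 and 6.78 in study 3 relapse tumours, against 7.14, 7.45 and 8.23 in responders, and its averaged log2 fold change was -0.40 ± 0.27. Klrc1, which recognises a non-classical class I molecule, had -0.72 ± 0.52. With the melanocyte-poor tumours left out the list median was -0.41. Gzma is on this list as well as on the cytotoxic one.

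The axis that the antibody blocks was lower on average in relapse tumours at the receptor and both ligands, and none of the 3 passed. Cd274, which encodes PD-L1, measured 9.48, 8.33 and 8.21 in study 2 relapse tumours, against 8.09, 8.75 and 10.03 as the lowest, median and highest responder. In study 3 it was 8.52, 8.70 and 8.82 in relapse tumours, against 8.73, 9.09 and 10.01 in responders. The groups overlapped in both studies, and the averaged log2 fold change was -0.39 ± 0.19 (95% interval -0.78 to -0.01, adjusted p = 0.847 by limma). Pdcd1lg2, which encodes PD-L2, the other ligand of PD-1, had 6.06, 5.04 and 4.83 in study 2 relapse tumours, against 4.55, 5.23 and 6.54 in responders. In study 3, Pdcd1lg2 had 5.60, 5.00 and 5.59 in relapse tumours, against 5.22, 6.69 and 7.88 in responders. Its averaged log2 fold change was -0.74 ± 0.26, with an unadjusted p of 0.0058 and an adjusted p of 0.847 by limma. Pdcd1, the gene of PD-1 itself, had 7.38, 5.6 and 5.6 in study 2 relapse tumours, against 5.10, 6.17 and 7.92 in responders. Its study 3 values were 6.71, 5.81 and 6.49 in relapse tumours, against 5.76, 7.19 and 9.34 in responders. For Pdcd1 the averaged log2 fold change was -0.60 ± 0.34. For the receptor and the 2 ligands alike, 5 of 6 relapse tumours were below their study's responder median, and the exception was study 2 replicate 1.

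Among the 16 checkpoint and exhaustion genes, which include these 3, 14 were negative on average, 3 had an unadjusted p below 0.05 and 0 passed, with a median of -0.24. Tnfrsf9, the costimulatory receptor 4-1BB of activated T cells, read 7.63, 8.12 and 7.83 in study 3 relapse tumours, against 8.13, 8.64 and 9.04 in responders, with replicate 2 next to the lowest responder. Study 2 relapse tumours had 8.40, 7.94 and 8.85, against 7.97 to 9.57 in responders, and overlapped. Its averaged log2 fold change was -0.44 ± 0.19, and 1 of its 3 probe sets gave 0.05 in the other direction. Ctla4, an inhibitory receptor of activated and regulatory T cells, had -0.33 ± 0.21. Foxp3, the factor that defines regulatory T cells, measured 5.38, 5.58 and 5.80 in study 2 relapse tumours, against 5.15, 5.52 and 5.82 in responders. In study 3, Foxp3 was 6.14, 5.87 and 6.14 in relapse tumours, against 5.73, 6.03 and 6.55 in responders. Relapse and responder values were interleaved, with an averaged log2 fold change of 0.06 ± 0.09 (95% interval -0.11 to 0.23), and the median of 7 regulatory T cell genes was 0.01. Leaving out the melanocyte-poor tumours, the checkpoint median was -0.11. It was -0.42 without study 2 relapse replicate 1, -0.13 without study 2 replicate 2 and -0.12 without study 3 replicate 2, and -0.037 with the melanocyte mean as a covariate.

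Ifng had a larger negative estimate than the median of the genes that answer to interferon gamma, and none of them passed. Ifng measured 7.22, 4.73 and 4.86 in study 2 relapse tumours, against 4.20, 5.92 and 7.76 in responders. In study 3 relapse tumours it measured 6.17, 5.74 and 6.10, against 6.14, 7.67 and 8.25 in responders. The averaged log2 fold change was -0.90 ± 0.41 (unadjusted p = 0.0285, adjusted p = 0.847 by limma), and 2 of 3 study 3 relapse tumours were below every responder. Of 9 genes of the interferon gamma signalling chain, 8 were negative on average with a median of -0.16. In study 2, 6 of the 9 were positive with a median of 0.02, and in study 3, 8 were negative with a median of -0.34. Ifngr1, the receptor chain that binds the cytokine, had an averaged log2 fold change of -0.29 ± 0.18. Without study 2 relapse replicate 2 the averaged median of these 9 genes was -0.10. It was -0.05 with the melanocyte mean as a covariate. The 18 response genes had a median of -0.04, with 11 negative and 7 positive, and this direction depended on single tumours. The response median was -0.20 with 16 of 18 negative without study 2 relapse replicate 1, 0.059 with 7 negative without study 2 replicate 3, and 0.0067 with 8 negative without study 2 replicate 2. Leaving out study 3 relapse replicate 2 gave -0.0086, and leaving out study 3 replicate 3 gave -0.090. Without the melanocyte-poor tumours it was -0.12 with 14 negative.

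Ubd, a ubiquitin-like protein strongly induced by interferon gamma, had the largest negative value of that list. It read 10.11, 7.86 and 6.54 in study 2 relapse tumours, against 6.25, 8.77 and 11.01 in responders. It read 9.43, 8.09 and 9.57 in study 3 relapse tumours, against 9.97, 10.81 and 12.09 in responders. Study 3 did not overlap, and the averaged log2 fold change of Ubd was -1.31 ± 0.64 (adjusted p = 0.847 by limma). Cxcl9, the chemokine that draws Cxcr3-bearing T cells, measured 11.91, 10.49 and 10.15 in study 2 relapse tumours, against 9.30, 11.42 and 12.62 in responders. Its study 3 values were 11.53, 10.95 and 11.51 in relapse tumours, against 10.78, 11.59 and 13.20 in responders. The groups overlapped in both studies, with an averaged log2 fold change of -0.34 ± 0.44. Gbp2b, an interferon-induced guanylate-binding protein, had -0.89 ± 0.53, with 9.15, 5.42 and 5.17 in study 2 relapse tumours against a responder range of 5.02 to 9.77.

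Chemokines and their receptors had mostly negative estimates: 15 of 16 were negative on average with a median of -0.30, 0 passed, and the median was -0.01 in study 2 and -0.58 in study 3. Ccl4, a chemokine made by activated lymphocytes and macrophages, had an averaged log2 fold change of -0.52 ± 0.25 (unadjusted p = 0.0434). It measured 8.21, 8.0 and 8.53 in study 3 relapse tumours, against 8.17, 9.42 and 9.59 in responders, so the groups overlapped only at the low end of the responders. Cxcr6, a receptor of tissue-dwelling T cells, had -0.76 ± 0.50. The list median was -0.30 without the melanocyte-poor tumours, -0.18 without study 2 relapse replicate 2 and -0.15 with the melanocyte mean as a covariate.

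**Figure D3:**
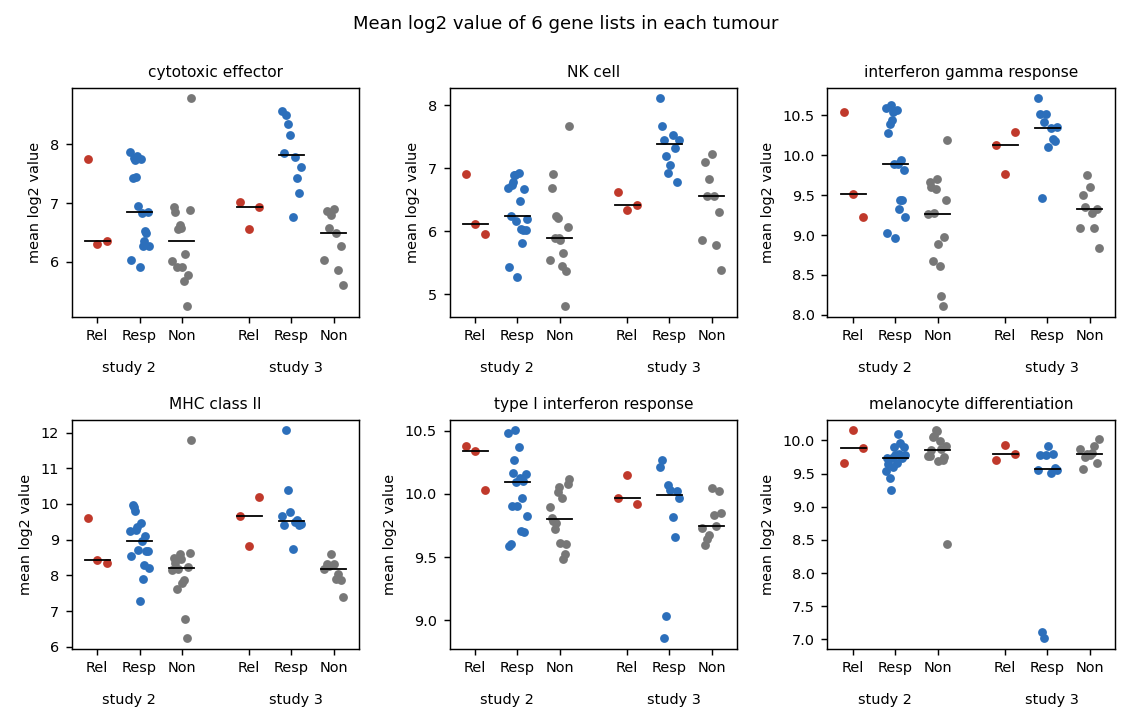
Mean log2 value (vertical axis) of 6 gene lists in each relapse (Rel, red), responder (Resp, blue) and non-responder (Non, grey) tumour of study 2 (left of each panel) and study 3 (right), with the group median as a black bar. Study 2 relapse replicate 1 is the high red point of the cytotoxic panel at 7.74; the 3 study 3 relapse tumours lie below all 10 responders for the NK list; the 2 lowest study 3 responders of the melanocyte panel, 7.02 and 7.12, are melanocyte-poor.

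Type I interferon response genes had estimates above 0. All 18 had a positive averaged fold change, none with an unadjusted p below 0.05, and the list median was 0.23, with 0.21 in study 2 and 0.23 in study 3. Leaving out each relapse tumour in turn gave medians from 0.18 to 0.30. Oas2, which makes the messenger that activates RNase L against viral RNA, measured 9.83, 9.86 and 9.75 in study 2 relapse tumours, against 8.97, 9.69 and 10.13 in responders. In study 3, Oas2 measured 9.44, 9.72 and 9.63 in relapse tumours, against 8.08, 9.25 and 9.92 in responders. All 6 relapse tumours were above their study's responder median and none was outside the responder range. The averaged log2 fold change was 0.30 ± 0.18. Ifih1, the MDA5 sensor of double-stranded RNA, had 0.26 ± 0.14 and Oas1a, of the same enzyme family as Oas2, 0.26 ± 0.13. Leaving out the melanocyte-poor tumours, the list median was 0.12 and 1 of 18 was negative. With the melanocyte mean as a covariate the list median was 0.09 and 6 of 18 were negative. By the mean of the whole list, 3 of the 6 relapse tumours were below their study's responder median, unlike for Oas2.

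Class I antigen presentation genes had estimates close to 0. B2m, the light chain that every class I molecule needs, measured 13.91, 13.88 and 13.84 in study 2 relapse tumours, against 13.66, 13.91 and 14.12 in responders. In study 3 relapse tumours it measured 13.83, 13.86 and 13.84, against 13.63, 13.83 and 13.96 in responders. Relapse values lay inside the responder range in both studies, and the averaged log2 fold change was -0.0050 ± 0.05 with a 95% interval of -0.10 to 0.09. H2-D1, a class I heavy chain, had 0.06 ± 0.10, and its 9 probe sets ranged from -0.18 to 0.09; class I heavy chains are near-identical, so an array may not separate them. Psmb8, an immunoproteasome subunit that cuts peptides for class I, had 0.08 ± 0.14. Over the 13 genes of class I and peptide loading the median was 0.03, 7 were positive and 6 negative, and the values ran from -0.08 to 0.09. Class II genes, which mark antigen-presenting cells, had a median of -0.23, with 8 of 9 negative. H2-DMa, which loads peptides onto class II, had -0.32 ± 0.38, and the class II median was -0.07 without the melanocyte-poor tumours. With 1 relapse tumour left out it ran from -0.41 (without study 2 replicate 1) to -0.08 (without study 3 replicate 2, with 5 of 9 negative), and it was -0.13 and -0.14 without study 2 replicates 2 and 3 and -0.36 without study 3 replicate 3. With the melanocyte mean as a covariate it turned to 0.12, with 8 of 9 positive.

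Myeloid genes had mostly negative estimates, with 0 past the test. Of 17 macrophage genes, 16 were negative on average with a median of -0.18, but the median was 0.11 in study 2 and -0.41 in study 3. This direction rested on single tumours: the macrophage median was 0.0038 with 8 of 17 negative without study 2 relapse replicate 2, -0.074 without study 3 replicate 2 and -0.27 without study 3 replicate 1. With the melanocyte mean as a covariate it was 0.10 with 12 of 17 positive. Mertk, a receptor for clearing dead cells, had an averaged log2 fold change of -0.41 ± 0.24, and Aif1, a cytoskeletal protein of macrophages, -0.42 ± 0.35. Of 14 genes of alternatively activated macrophages 9 were negative with a median of -0.07, while 13 of 14 were positive in study 2, with a median of 0.40, and 12 of 14 negative in study 3, with a median of -0.35. With 1 relapse tumour left out the averaged median ran from -0.21 (without study 2 replicate 3) to 0.18 (without study 2 replicate 2), and it was 0.021 without study 2 replicate 1 and 0.0022 without study 3 replicate 2. Arg1, the arginase of these cells and the lowest value of the list, measured 8.98, 7.39 and 11.12 in study 2 relapse tumours, against 5.83, 9.10 and 12.44 in responders. In study 3, Arg1 measured 8.52, 8.13 and 8.77 in relapse tumours, against 8.26, 10.39 and 11.26 in responders. In study 3, 1 relapse tumour was below every responder and the other 2 were under the responder median, and the averaged log2 fold change was -0.83 ± 0.57. Lyve1, a hyaluronan receptor of lymphatic vessels and some macrophages and the highest value of the list, had 0.86 ± 0.68, with relapse values from 3.69 to 8.63 in study 2 alone.

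Neutrophil genes had a median of -0.33, with 12 of 13 negative, 2 at an unadjusted p below 0.05 and 0 past the threshold. The median was -0.055 in study 2, with 8 of 13 negative, and -0.49 in study 3, with 12 of 13 negative. Il1b, the inflammatory cytokine of neutrophils and monocytes, read 6.08, 6.02 and 5.96 in study 3 relapse tumours, against 6.20, 6.84 and 8.96 in responders, with no overlap. Study 2 relapse tumours had 6.18, 5.67 and 6.29, against 5.37 to 7.99 in responders, and the averaged log2 fold change was -0.61 ± 0.24 (unadjusted p = 0.0154, adjusted p = 0.847 by limma). Camp, a neutrophil granule peptide, had -0.33 ± 0.13. Of the 14 dendritic cell genes 9 were negative with a median of -0.07 (-0.12 without study 2 relapse replicate 1), and Cd86, a costimulatory ligand for T cells, had -0.47 ± 0.32. The 13 mast cell and eosinophil genes had a median of 0.02, and Cpa3, a mast cell protease, had 0.33 ± 0.24.

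B cell genes were high in 1 relapse tumour and 1 responder of study 3. The list mean was 5.89, 5.21 and 7.41 in study 3 relapse tumours, against 5.27, 5.71 and 10.37 as the lowest, median and highest responder. The relapse tumour at 7.41 was replicate 3, which also had a Glycam1 value of 10.19, against 4.82 and 4.31 in the other study 3 relapse tumours; Glycam1, an adhesion ligand made by lymph node venules, was named after its value was seen. The responder at 10.37 was replicate 3, one of the melanocyte-poor tumours, and it had a Glycam1 value of 12.49. The B cell median was -0.05, and -0.33 without study 3 relapse replicate 3 and 0.21 without the melanocyte-poor tumours. Leaving out study 3 relapse replicate 2 gave a B cell median of 0.16, and leaving out study 3 replicate 1 gave 0.013. The 11 plasma cell genes had a median of -0.13, and -0.020 without study 3 relapse replicate 2. Igha, the IgA heavy chain, had an averaged log2 fold change of 0.55 ± 0.56, while Tnfrsf17, the plasma cell survival receptor BCMA, had -0.32 ± 0.20.

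Pigment-cell genes were above 0 on average. Of 18 melanocyte differentiation genes 17 had a positive averaged fold change, 1 had an unadjusted p below 0.05 and 0 passed, with a median of 0.43. Mlana, the melanoma antigen MART-1, measured 9.66, 10.90 and 10.00 in study 2 relapse tumours, against 8.41, 9.68 and 10.93 in responders. In study 3, Mlana measured 10.10, 10.41 and 10.38 in relapse tumours, against 6.00, 10.14 and 11.08 in responders. No relapse tumour was below the responder range, and the averaged log2 fold change was 0.67 ± 0.47 (95% interval -0.26 to 1.59, adjusted p = 0.848 by limma). Mitf, the master regulator of the lineage, measured 12.54, 12.58 and 12.29 in study 2 relapse tumours, against 12.04, 12.47 and 12.67 in responders, and its averaged log2 fold change was 0.29 ± 0.25. Its study 3 values were 12.20, 12.27 and 12.27 in relapse tumours, against 9.16, 12.19 and 12.58 in responders. Slc45a2, a melanosome transporter, had 0.84 ± 0.42, Mlph, which links melanosomes to their motor, 0.74 ± 0.38, and Sox10, a lineage factor upstream of Mitf, 0.65 ± 0.36. Much of the estimate rested on the melanocyte-poor responders. They were set apart by the mean of this same list, so leaving them out was bound to lower the estimate. Without them the list median was 0.15 with 3 of 18 negative. Averaged log2 fold changes were then 0.23 for Mlana, -0.01 for Mitf, 0.33 for Slc45a2, 0.45 for Mlph and 0.26 for Sox10. Mlph still had all 3 study 3 relapse tumours, at 9.42, 9.48 and 9.61, above the highest responder at 9.30. Of 18 neural crest and dedifferentiation genes, which mark melanoma cells that have lost pigment identity, 9 were positive and 9 negative with a median of 0.00. Snai2, a migration factor of the neural crest, had 0.23 ± 0.13, and Erbb3, a neuregulin receptor of the lineage, 0.39 ± 0.23.

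Of the 13 engineered genes and genes of their pathway, 10 were positive on average with a median of 0.17, and 0 passed. The median was 0.11 without study 2 relapse replicate 1 and 0.043 without the melanocyte-poor tumours. Hgf, the growth factor of the transgene, measured 11.75, 11.91 and 11.98 in study 2 relapse tumours, against 11.22, 11.76 and 12.99 in responders. In study 3 relapse tumours it measured 11.46, 11.49 and 11.17, against 5.63, 10.98 and 11.19 in responders, so 2 of 3 relapse tumours were above all responders there. This gave an averaged log2 fold change of 0.70 ± 0.42, and 0.20 without the melanocyte-poor tumours. The sources do not say whether its probe set reads the transgene, the endogenous gene or both. Of the 3 Hgf probe sets, 1 with a mean level of 4.04 gave -0.019. Met, the receptor of Hgf, had 0.47 ± 0.29, and 0.11 without those tumours. Cdk4 measured 11.24, 11.61 and 11.31 in study 2 relapse tumours, against 10.53, 11.31 and 11.54 in responders. In study 3, Cdk4 read 10.92, 11.29 and 11.06 in relapse tumours, against 9.54, 11.08 and 11.41 in responders. For Cdk4 the averaged log2 fold change was 0.17 ± 0.15. Ccnd2, a cyclin that activates Cdk4, had 0.23 ± 0.16, with all 7 of its probe sets positive.

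Proliferation genes had small positive estimates. Of 24 cell cycle genes 23 were positive with a median of 0.19, 0.04 in study 2 and 0.35 in study 3, and 0 passed or had an unadjusted p below 0.05. Mki67, the standard proliferation marker, measured 11.22, 10.90 and 10.98 in study 2 relapse tumours, against 10.00, 11.14 and 11.44 in responders. In study 3 relapse tumours it measured 11.12, 11.09 and 11.14, against 9.63, 10.76 and 11.12 in responders, so 2 of 3 were above every responder. The averaged log2 fold change of Mki67 was 0.27 ± 0.21 (95% interval -0.14 to 0.68, adjusted p = 0.852 by limma). Plk1, a mitotic kinase, had 0.33 ± 0.19, Mcm5, a helicase subunit of DNA replication, 0.27 ± 0.14, and Foxm1, a factor that drives mitotic genes, 0.27 ± 0.17. Plk1, Mcm5 and Cdc20 were the 3 cell cycle genes with every study 3 relapse tumour above every responder, beside 2.51% of all genes; Cdc20, an activator of the anaphase complex, was named after its values were seen. With the melanocyte-poor tumours left out the list median was 0.05 and 8 of 24 were negative, while Mki67 had 0.24.

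Metabolic genes had medians near 0, and 0 passed. The 15 oxidative phosphorylation genes had a median of 0.05, and Uqcrc1, a subunit of complex III, had an averaged log2 fold change of 0.20 ± 0.10. Of 16 hypoxia and glycolysis genes 13 were negative with a median of -0.14, which was -0.019 with 9 negative without study 2 relapse replicate 2. Bnip3, a mitochondrial protein induced by hypoxia, had -0.54 ± 0.26 (unadjusted p = 0.0409), with 10.91, 11.67 and 11.55 in study 3 relapse tumours against 11.22, 12.05 and 12.64 in responders. Ankrd37, another hypoxia-induced gene, had -0.36 ± 0.27. The 10 ribosomal protein genes had a median of 0.03, and the 14 Wnt target genes a median of -0.01. Within the Wnt targets Znrf3, a membrane inhibitor of the pathway, had 0.44 ± 0.20 and Nkd2, an intracellular inhibitor, 0.41 ± 0.20, while Lgr5, a receptor for R-spondins, had -0.16 ± 0.07; each had an unadjusted p between 0.0204 and 0.0453.

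Stromal and neighbouring-tissue genes varied between pieces. Of 20 fibroblast and matrix genes 19 were positive on average with a median of 0.22, but the median was 0.61 in study 2 and -0.05 in study 3. The study 2 value rested on replicate 3, with a list mean of 11.60, against 10.65 and 9.67 in the other relapse tumours and a responder median of 9.85; without it the averaged list median was 0.03 and 9 of 20 were negative. The median was 0.54 without study 2 relapse replicate 2 and 0.38 without study 3 replicate 2. Col1a1, the main fibrillar collagen chain, had an averaged log2 fold change of 0.47 ± 0.61. Mmp2, a matrix protease of fibroblasts, had 0.21 ± 0.22. Of 12 genes of the TGF beta axis 6 were positive and 6 negative, with a median of 0.02, which ran from -0.099 (without study 2 relapse replicate 3) to 0.13 (without study 2 replicate 2). Of 17 endothelial genes 14 were negative with a median of -0.10. It was -0.062 without study 2 relapse replicate 1, -0.023 without study 2 replicate 2, -0.019 without study 3 replicate 2, and 0.053 without the melanocyte-poor tumours. Eng, a TGF beta co-receptor of vessels, had the highest value of that list, 0.23 ± 0.15. Cldn5, a junction protein, had the lowest, -0.31 ± 0.30, and was chosen from the genes of the naming rule after its value was seen. Skeletal muscle RNA was high in study 2 relapse replicate 2, at a list mean of 9.60, and in study 3 relapse replicate 1, at 8.36, and the other 4 relapse tumours had 5.29 to 5.74. Responders had 4.96 to 11.69 in study 2 and 5.26 to 13.06 in study 3. Adipocyte means were 8.47, 6.69 and 9.05 in study 3 relapse tumours, against a median of 7.82 in responders, and 5.66, 6.26 and 6.90 in study 2 relapse tumours, against 6.00 in responders. Keratinocyte genes had a median of -0.13 (-0.037 without study 3 relapse replicate 2) and immediate early genes of -0.05, with the immediate early median at -0.20 (without study 2 relapse replicate 3) and 0.044 (without study 2 replicate 1); Perp, a desmosome protein, had -0.26 ± 0.12 and Atf3, a stress-induced factor, -0.40 ± 0.24.

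Across all 33 lists, 178 of the 198 list means of relapse tumours lay inside the range of their study's responders. Of the 20 outside, 5 were in study 2, with 17 responders, and 15 in study 3, with 10.

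The genes of smallest p in each direction had modest fold changes, and none passed. Itga3, an integrin chain that binds laminin, measured 6.16, 6.12 and 6.17 in study 2 relapse tumours, against 6.17, 6.42 and 6.65 in responders. In study 3 relapse tumours it measured 6.35, 6.21 and 6.00, against 6.26, 6.49 and 6.77 in responders. All 6 relapse tumours were below their study's responder median, and the averaged log2 fold change was -0.29 ± 0.06 (95% interval -0.41 to -0.16, adjusted p = 0.29 by limma). The other 2 probe sets of Itga3 gave -0.029 and 0.016, so the probe sets of this gene disagreed. With array weights the averaged fit called Itga3 lower at an adjusted p of 0.0334 by limma, Sox15 at 0.0209 and 4930556L07Rik at 0.0249. The next 4 lower genes were 4930556L07Rik (-0.28 ± 0.07), Pax4, a factor of pancreatic islet development (-0.25 ± 0.06), Smpd5, a sphingomyelinase (-0.34 ± 0.09), and Sox15, a transcription factor (-0.31 ± 0.09). Their values lay between 4.67 and 6.4 in the relapse and responder tumours, beside array medians of 5.71 to 5.90. The other probe set of 4930556L07Rik gave -0.020, so the probe sets of that gene also differed.

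Among the higher genes, Iah1, an esterase, had the smallest p, with an averaged log2 fold change of 0.36 ± 0.11. Prune2, a relative of the Drosophila prune protein, measured 5.75, 6.75 and 6.55 in study 2 relapse tumours, against 5.86, 6.37 and 7.04 in responders. In study 3, Prune2 measured 8.03, 8.25 and 7.36 in relapse tumours, against 5.33, 6.20 and 7.09 in responders, with no overlap. Its averaged log2 fold change came to 0.82 ± 0.24, with -0.02 in study 2 and 1.66 in study 3. Its 4 probe sets ran from -0.07 to 0.82. Fcsk, the kinase that salvages fucose, had 0.35 ± 0.11, Tmco3, a predicted membrane transporter, 0.38 ± 0.12, and Gm20045 had 0.42 ± 0.13. The probe set of Gm20045 had a mean level of 3.80, below the array medians of 5.71 to 5.90. All 3 study 3 relapse tumours were above all responders for Iah1, Prune2, Fcsk and Tmco3, beside 2.51% of all genes. These genes were picked by their p in this same comparison, so the separation is no further support. The probe sets of Iah1 ran from -0.03 to 0.36, those of Fcsk from 0.08 to 0.35 and those of Tmco3 from 0.19 to 0.38.

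**Figure D4:**
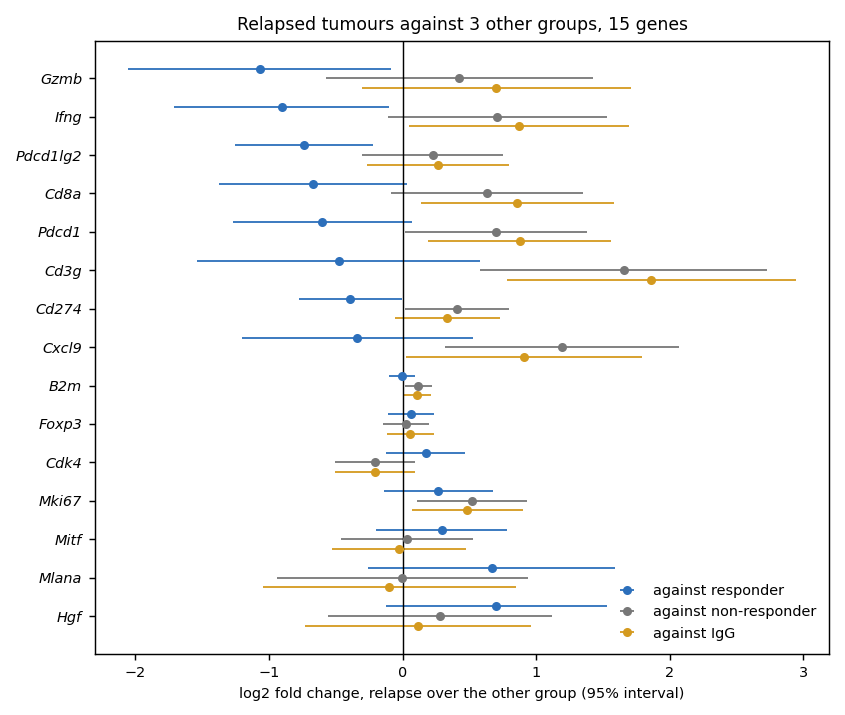
Averaged log2 fold change of relapse over responder (blue), over non-responder (grey) and over IgG-treated tumours (orange) for 15 genes, as points with 95% intervals (horizontal axis, log2 units). The T cell and interferon genes from Gzmb to Cxcl9 are left of 0 against responders and right of 0 against both other groups; the 3 comparisons share the same 6 relapse tumours.

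Set beside tumours that grew under the antibody or received control IgG, the same 6 relapse tumours had higher estimates for many of the immune genes. Non-responders, 23 tumours, gave 4370 called genes, or 24%, with 1813 (9.96%) higher and 2557 (14.1%) lower in relapse (limma, adjusted p below 0.05). IgG-treated controls, 22 tumours, gave 198, or 1.09%, with 70 higher and 128 lower. These comparisons share the relapse tumours with the responder comparison and are given side by side only. Their counts depended on single tumours: against non-responders the count was 700 without study 2 relapse replicate 1 (104 of them higher), between 1163 and 3478 without each of the others, and 7514 without the melanocyte-poor tumours. Against IgG the counts were 0 to 21 with any relapse tumour left out and 2573 without the melanocyte-poor tumours.

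Against non-responders, 8 of 18 interferon gamma response genes were higher in relapse, with a list median of 0.73, as were 5 of 9 class II genes (1.2), 6 of 13 class I genes (0.33), 12 of 20 fibroblast genes (1.25), 4 of 14 T cell genes (0.67; 1 was lower) and 3 of 21 cytotoxic genes (0.57). Over all genes 9.96% were higher and the median was -0.06, so the cytotoxic share lay near the share of all genes. No gene was called higher among 6 NK, 13 neutrophil and 12 B cell genes, while 4 of 15 oxidative phosphorylation genes and 2 of 12 keratinocyte genes were lower. Over all genes 14.1% were lower, so the keratinocyte share lay near the share of all genes. Cd3g had a log2 fold change of 1.66 over non-responders (adjusted p = 0.027 by limma) beside -0.48 over responders. Of 8 fits, run with all tumours, without the melanocyte-poor tumours and without each relapse tumour in turn, 5 called it. Cxcl9 had 1.19 over non-responders (adjusted p = 0.0416 by limma) beside -0.34 over responders, and was called in 2 of the 8. Gzmb had 0.42 over non-responders (adjusted p = 0.512), Cd8a 0.63 (0.162), Cd274 0.41 (0.1) and Ifng 0.71 (0.168), none of which passed by limma. B2m had 0.12 over non-responders (adjusted p = 0.0691 by limma). Gzma had -0.41 and Klrg1 -0.18 over non-responders, and neither passed. Itga3, Pax4, Sox15 and 4930556L07Rik were lower in relapse than in non-responders in all 8 fits, with log2 fold changes of -0.41, -0.37, -0.35 and -0.36 with all tumours. Over IgG they had -0.32, -0.27, -0.35 and -0.26, with adjusted p between 0.0135 and 0.0435 by limma. Those IgG calls held in 5 of 8 fits for Itga3 and in 2 of 8 for each of the other 3, with adjusted p up to 0.171 (Sox15). Smpd5, a lower gene picked by the same rule, had -0.23 over non-responders (adjusted p = 0.0533 by limma) and was called in 2 of 8 fits. Over IgG Smpd5 had -0.13 (adjusted p = 0.304 by limma) and was called in 0 of 8. Of the higher genes, Gm20045 was called over non-responders in 8 of 8 fits, Iah1, Prune2 and Fcsk in 2 and Tmco3 in 1. Over IgG, Gm20045 was called in 1 of 8 and the others in 0. Every fit used the same single probe set for a gene. Other probe sets of Itga3 and 4930556L07Rik had values near 0 over responders. These lower and higher genes were picked by their p against responders, with the same relapse tumours. Their calls over non-responders and IgG are therefore no further support, and the adjusted p does not allow for that choice.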

How the data were processed

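RNA of 90 tumours was measured on arrays of 45101 probe sets. The values the authors deposited are log2 intensities between 2.19 and 14.84. RMA, which normalizes and summarises probe sets, and limma are named per the submitters' processing notes, with no version. Joint normalization of the studies was not given in the sources used here. Arrays give no counts, so their number limits the precision.

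Of the probe sets, 34958 with a single symbol entered the fit, and 932 with several symbols and 9211 unnamed here did not. The probe set of highest mean stood for each of 18194 genes, of which 9012 had several. All arrays were fitted in limma 3.58.1 (R 4.3.3) with 12 group means, and relapse was contrasted with responder within each study and averaged. The procedure was tested on simulated data.

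The tumours, the 33 lists (520 entries, 470 measured) and the naming rule were chosen with earlier results of these data known. The rule takes a fixed set of 15 genes, the genes past the threshold (up to 15 in each direction) or else the 5 of smallest p in each direction, and the 3 members of each list with the smallest p; some are left out for length. Alternatives changed the prior variance, array weights, probe-set choice, scaling, covariates and tumours included. A list is described by its counts and its median, with no test.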

Additional observations from a re-analysis of the deposited data

Results flagged for a closer look

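In study 3 responders, the 1 group of 4 to 10 tumours in the comparison, 29 of 122 list means and genes had a highest or lowest tumour set apart from the other 9; chance sets about 1 in 20 such groups apart. That rate holds for independent groups. The 122 share the same 10 tumours and some were named after their values were seen, so their count cannot be compared with it. The flags fall mostly on the 2 melanocyte-poor responders. Replicate 3 was highest for the class II mean (12.07, against a median of 9.50 in the others), the B cell mean (10.37 against 5.70), the plasma cell mean (10.97 against 7.78), the mast cell mean (5.70 against 4.97) and the keratinocyte mean (5.54 against 4.62). It was also highest for Glycam1 (12.49 against 4.51), Pax5, a B cell factor (7.53 against 5.79), Tnfrsf17 (6.67 against 4.08), Lyve1 (9.89 against 7.01) and Perp (5.20 against 3.69). It was lowest for the interferon gamma response mean (9.46 against 10.36), the hypoxia and glycolysis mean (9.71 against 10.55), the oxidative phosphorylation mean (11.35 against 11.87), Tmco3 (6.44 against 7.47) and Nkd2 (5.11 against 7.26).

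Replicate 4 was lowest for the cell cycle mean (8.08 against 9.96), the ribosomal protein mean (12.58 against 13.19), Psmb8 (11.42 against 12.25), Mcm5 (9.46 against 11.28), Plk1 (7.24 against 9.30), Cdc20 (9.03 against 11.04) and Snx6, a sorting nexin (8.87 against 10.43). It was highest for the TGF beta mean (10.05 against 8.30), the immediate early mean (10.58 against 8.91), Cxcl9 (13.20 against 11.58) and Atf3 (10.77 against 9.16). Replicate 6 was lowest for the chemokine mean (8.22 against 9.08) and for Aif1 (9.33 against 10.84). Replicate 10 was highest for Fndc3c1, at 7.0 against 4.46; the 3 relapse tumours of study 3 had 6.77, 6.30 and 6.52 for this gene, above the other 9 responders.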

How the results depend on the processing

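With all arrays weighted equally, 0 genes passed in either study or on average under a variance trend, a robust prior, averaging each gene's probe sets, dropping the dimmest genes, centring arrays on their medians, quantile normalization, the RNA integrity covariate, ignoring study (average only), counting stabilization as response, the melanocyte mean as a covariate, a threshold of 0.01, or leaving out each relapse tumour in turn (0 to 0). Array weights called 7 genes on average: Ttl higher and 2310016G11Rik, 4930556L07Rik, Itga3, Pax4, Snx6 and Sox15 lower. Weights fitted gene by gene, chosen after seeing the data, called the same 7. In study 3 these 2 methods called 187 and 128 genes, among them Klrg1 lower under both, and Gzma and Tnfrsf9 lower under the first. The first gave study 3 responder replicates 3 and 4 weights of 0.0775 and 0.0261. It also gave extreme weights outside the compared groups, 134 to study 3 stabilization replicate 2 and 8.93 to study 2 PBS replicate 3. Study 3 also gave 2 genes with only the groups compared (Fndc3c1 and Prune2 higher), 3 without the melanocyte-poor tumours (Glycam1 higher, Pax4 and Snx6 lower), and 4 with muscle and adipocyte means as covariates (Klrg1 and Pax4 lower, Prune2 and Tirap higher). The causes were not tested.

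Of 2023 values of 89 genes under 23 settings, 14 changed sign, 14 passed only with array weights, and 1995 did neither. With the melanocyte mean as a covariate, Mlana had -0.054, Mitf -0.15, Cdk4 -0.061 and Met -0.060. Mlana and Mitf are members of the list that gave this covariate. The fit removes the list's own average from its members, so the changed signs of Mlana and Mitf are no test of them. Mitf had -0.031 and -0.015 under the 2 array weightings and -0.0051 without the melanocyte-poor tumours. With each gene's probe sets averaged B2m had 0.031, H2-D1 -0.021 and Psmb8 -0.016. B2m had 0.0041 under quantile normalization. With 1 relapse tumour left out B2m ran from -0.012 (without study 2 replicate 1) to 0.0034 (without study 2 replicate 3), Psmb8 from -0.027 (without study 2 replicate 1) to 0.16 (without study 2 replicate 3), and Glycam1 from -0.43 (without study 3 replicate 3) to 1.04 (without study 3 replicate 2). Chosen after seeing the data were also the 3 prime to 5 prime covariate without the array of the largest difference (0 genes), which is of a PBS tumour outside the compared groups, and the tumours left out against non-responders and IgG. No paired analysis was possible because the labels give no replicate numbers shared between groups. With 3 relapse tumours in each study, the number of arrays limits the precision.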
